A study of Homo sapiens with 44 samples.

Results

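Transcript levels were compared between estrogen pretreated (E2p) ZR-75-1 cells that received fresh estradiol (E2) together with progesterone (P4) for 16 h and E2p cells that received fresh E2 alone for 16 h. The arrays were chosen by their labels, 5 for E2+P4 and 3 for E2, which is 8 of the 44 arrays of the series in 14 groups. ZR-75-1 is an established human breast cancer cell line of luminal type. All 8 cultures were pretreated with 10 nM E2 for 72 h, and the second hormone addition was overlaid onto the medium already present, so that the priming E2 was not removed. In the first group the overlay held 10 nM E2 with 10 nM P4, and in the second it held 10 nM E2. A pair of other 16 h groups of 3 arrays each is set beside them, E2p cells overlaid with 10 nM P4 without fresh E2 and E2p cells overlaid with ethanol vehicle. All cells came from 1 line, and the labels number the replicates without saying that they came from separate experiments. A p-value or standard error thus reflects only how much arrays vary within groups, pooled over the 14 groups. Part of that variation may be technical. In a gene whose 5 E2+P4 arrays vary more than arrays of the other groups, the standard error can be too small for this comparison.

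Progesterone acts through the progesterone receptor (PR), the product of PGR, a nuclear receptor that binds DNA as a dimer and changes the transcription of nearby genes. In breast epithelium PGR is itself induced by E2 through the estrogen receptor (ER), the product of ESR1, so that cells primed with estrogen have more PR. Once active, PR lowers transcript levels of its own gene and of ESR1, and it alters growth factor, lipid and cell cycle genes. FOXA1 and GATA3 encode transcription factors that maintain the luminal program and help ER to reach its sites.

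The sequences at the start sites of 4 genes on which the results turn are shown first. ACSL1 and SGPP2 were among the 10 largest increases under E2+P4, NRCAM was among the genes that were lowered most, and C1orf116 had the smallest p for a difference between the responses with and without fresh E2. Each window runs from 250 bases before to 50 bases after the RefSeq start site (GRCh38.p14), 5′ to 3′ on the gene's strand. They lie at chr4:184825919-184826218 on the minus strand for ACSL1, chr2:222423738-222424037 on the plus strand for SGPP2, chr7:108456387-108456686 on the minus strand for NRCAM and chr1:207032707-207033006 on the minus strand for C1orf116. Capitals mark TGTTCT, 1 arm of the progesterone response element.
ACSL1: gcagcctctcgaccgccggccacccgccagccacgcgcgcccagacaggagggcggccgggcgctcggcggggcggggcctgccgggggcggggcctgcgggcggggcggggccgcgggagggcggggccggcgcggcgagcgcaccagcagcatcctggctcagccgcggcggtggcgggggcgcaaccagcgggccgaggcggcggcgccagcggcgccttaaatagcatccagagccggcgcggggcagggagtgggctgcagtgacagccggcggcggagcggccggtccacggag
SGPP2: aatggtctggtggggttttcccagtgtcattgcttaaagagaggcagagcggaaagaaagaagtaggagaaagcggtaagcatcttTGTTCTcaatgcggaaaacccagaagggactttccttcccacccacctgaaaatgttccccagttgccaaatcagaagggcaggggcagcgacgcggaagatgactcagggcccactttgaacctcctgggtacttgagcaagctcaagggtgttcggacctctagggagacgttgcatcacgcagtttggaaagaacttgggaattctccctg
NRCAM: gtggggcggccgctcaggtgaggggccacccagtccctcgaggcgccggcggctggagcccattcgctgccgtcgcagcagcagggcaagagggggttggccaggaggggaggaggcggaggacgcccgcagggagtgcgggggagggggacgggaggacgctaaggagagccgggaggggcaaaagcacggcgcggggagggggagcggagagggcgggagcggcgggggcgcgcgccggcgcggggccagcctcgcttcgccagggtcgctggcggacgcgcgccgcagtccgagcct
C1orf116: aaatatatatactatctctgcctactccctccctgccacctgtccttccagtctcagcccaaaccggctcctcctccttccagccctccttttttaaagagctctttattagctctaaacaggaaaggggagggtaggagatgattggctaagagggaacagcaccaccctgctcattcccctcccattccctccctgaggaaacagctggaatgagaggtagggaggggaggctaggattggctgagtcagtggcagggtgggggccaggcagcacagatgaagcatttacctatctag
The arm TGTTCT, searched on both strands, was found once in the SGPP2 window, at position -164 from the start, and was not among the letters of the other 3 windows. It occurred in 14.9% of all 27305 promoter windows, in 9.89% of the windows of tested genes, in 8.62% of those of genes at least 2-fold higher under E2+P4 and in 8.6% of those of genes at least 2-fold lower. The full element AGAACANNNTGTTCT was in 1 of the 27305 windows and the estrogen element GGTCANNNTGACC in 18 of them (0.0659%), and neither was in any window of these higher or lower genes. Only exact matches within these windows were searched, whereas the paper found most PR sites in introns and distal intergenic regions. The search therefore cannot tell whether PR acts on these genes. MIR21, a microRNA gene that was also among the largest increases, gives rise to miR-21-5p, whose seed (bases 2 to 8) is in capitals. The array cluster named MIR21 measures transcript from the gene and does not tell the mature form apart.
hsa-miR-21-5p: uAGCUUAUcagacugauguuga

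The 8 arrays had similar distributions in the processed values. The processing included quantile normalization, which itself makes arrays alike, so that the tests of medians and ranges cannot tell how alike the arrays were before it. Array medians averaged 5.6 for E2+P4 and 5.59 for E2 on the log2 scale (exact permutation test, two-sided, p = 0.411, where 56 splits allow a smallest p of 0.0179), and the interquartile ranges averaged 2.98 and 3.03 (exact permutation p = 0.161). E2+P4 replicate 1 had the narrowest range, 2.90, beside 2.96 to 3.01 in the other 4 E2+P4 arrays. The 6 luminal epithelial markers on the table averaged 9.94 to 10.31 in E2+P4 cells and 10.28 to 10.36 in E2 cells. They were led by KRT18 at 11.63 to 12.09. Not all were high, since KRT8 averaged 7.74 under E2+P4 and 7.72 under E2, and ESR1 was at 7.45 to 8.11 under E2+P4. Both fibroblast markers on the table, DCN and LUM, lay at or below the 30th percentile of every array. Averaged over the list, 4 immune markers lay between 6.02 and 6.32 in E2+P4 cells and between 6.01 and 6.03 in E2 cells, led by CD68 at 8.24 to 8.56, and 5 endothelial markers lay between 5.09 and 5.44 and between 5.11 and 5.27. Of the immune and endothelial markers tested, 0 of 4 and 0 of 4 differed between the groups in limma. In a culture a lower level cannot be told apart as fewer cells with a transcript or less of it per cell.

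E2+P4 cells differed from E2 cells in 5738 of 41374 tested clusters, each a set of probes for 1 transcript locus (13.9%, adjusted p of at most 0.05 with the Bayesian moderated t-statistic). Of these, 2460 were higher (5.95%) and 3278 were lower (7.92%). At least 2-fold changes were found in 273 clusters that were higher (0.66%) and 260 that were lower (0.628%). Unlike among all calls, higher clusters also outnumbered lower ones at an adjusted p of at most 0.0001, with 853 higher and 773 lower. Among the 13466 named genes 1333 were higher and 1587 lower. The 5 arrays of one group and the 3 of the other did not overlap in 7353 clusters (17.8%), and 4988 of these were also called (12.1%).

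The largest changes were shared by all 5 E2+P4 arrays. ACSL1, which activates long-chain fatty acids by coupling them to coenzyme A, had log2 signals of 10.72, 10.58, 10.70, 10.79 and 10.70 in E2+P4 replicates 1 to 5, against 7.31, 7.72 and 7.32 in E2 replicates 1 to 3. The groups lay far apart and the 5 E2+P4 arrays close together. Its level was 9.5-fold higher under E2+P4 (log2 difference 3.25 ± 0.11, SE, adjusted p = 1e-21). SGPP2, a phosphatase of sphingosine-1-phosphate, had 9.50, 9.91, 9.90, 9.80 and 9.74 under E2+P4, against 6.26, 6.83 and 6.54 under E2. Every E2+P4 array was above every E2 array, and the level was 9.38-fold higher (3.23 ± 0.16, adjusted p = 3.13e-17). TMEM63C, of a family of mechanosensitive channels, gave 11.45, 11.60, 11.32, 11.43 and 11.56 under E2+P4, against 8.35, 8.30 and 8.53 under E2 (3.08 ± 0.08, adjusted p = 2.53e-24), the smallest adjusted p of all clusters.

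Other genes rose by as much but less evenly. SCEL, which encodes sciellin of the cornified envelope, had 7.14, 8.42, 7.97, 7.83 and 8.46 in E2+P4 cells, whereas all 3 E2 arrays (3.07, 4.07 and 3.63) were at or below the 30th percentile of their array, so that only a lower bound can be given. It was at least 10.9-fold higher under E2+P4 (adjusted p = 1.81e-15). P3H2, a hydroxylase of collagen prolines, had 8.19, 9.23, 8.51, 8.48 and 9.06 under E2+P4, against 5.38, 5.33 and 5.29 under E2. Replicates 2 and 5 were highest in both genes. LCE3D, a late cornified envelope gene, was at 7.59, 8.82, 7.56, 7.62 and 9.06 under E2+P4, against 5.05, 5.46 and 4.85 under E2 (3.01 ± 0.30, adjusted p = 1.84e-09), again with replicates 2 and 5 above the others. MIR21 was at 8.63, 9.56, 8.90, 8.93 and 9.64, against 6.21, 7.19 and 6.32, a 5.9-fold difference (2.56 ± 0.24, adjusted p = 4.01e-10). The transcription factor gene TFCP2L1 (log2 difference 3.10 ± 0.14), HSD11B2, whose product inactivates cortisol (2.62 ± 0.09), and PLLP, a membrane protein of myelin and epithelia (2.58 ± 0.10), completed the 10 largest increases.

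Among the decreases, DSCAM-AS1, a noncoding RNA of ER-positive luminal cells, had 7.04, 5.88, 7.15, 7.38 and 6.26 in E2+P4 cells, against 10.33, 9.81 and 10.21 in E2 cells. The groups did not overlap, replicates 2 and 5 were lowest, and the level was 10.4-fold lower under E2+P4 (log2 difference -3.37 ± 0.23, adjusted p = 2.61e-13). The orphan receptor gene GPR139 had 6.23, 6.35, 6.28, 6.59 and 6.05 under E2+P4, against 9.49, 9.33 and 9.50 under E2 (-3.14 ± 0.12, adjusted p = 3.28e-20). NRCAM, a neuronal type cell adhesion molecule, had 5.83, 5.79, 5.97, 6.04 and 6.25 under E2+P4, against 8.73, 8.80 and 8.91 under E2 (-2.84 ± 0.11, adjusted p = 1.08e-19). In both genes the 5 arrays were close together and far below the E2 arrays. CCL2, a monocyte chemokine, was at 5.89, 5.11, 6.14, 6.21 and 5.31 under E2+P4, against 8.30, 10.16 and 8.00 under E2 (-3.09 ± 0.33, adjusted p = 1.08e-08), where E2 replicate 2 was well above the other 2 control arrays. PDZK1, CXCL12, PXK, SYTL5 and DOCK10 were lower as well, with log2 differences of -2.42 to -2.14.

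**Figure D1:**
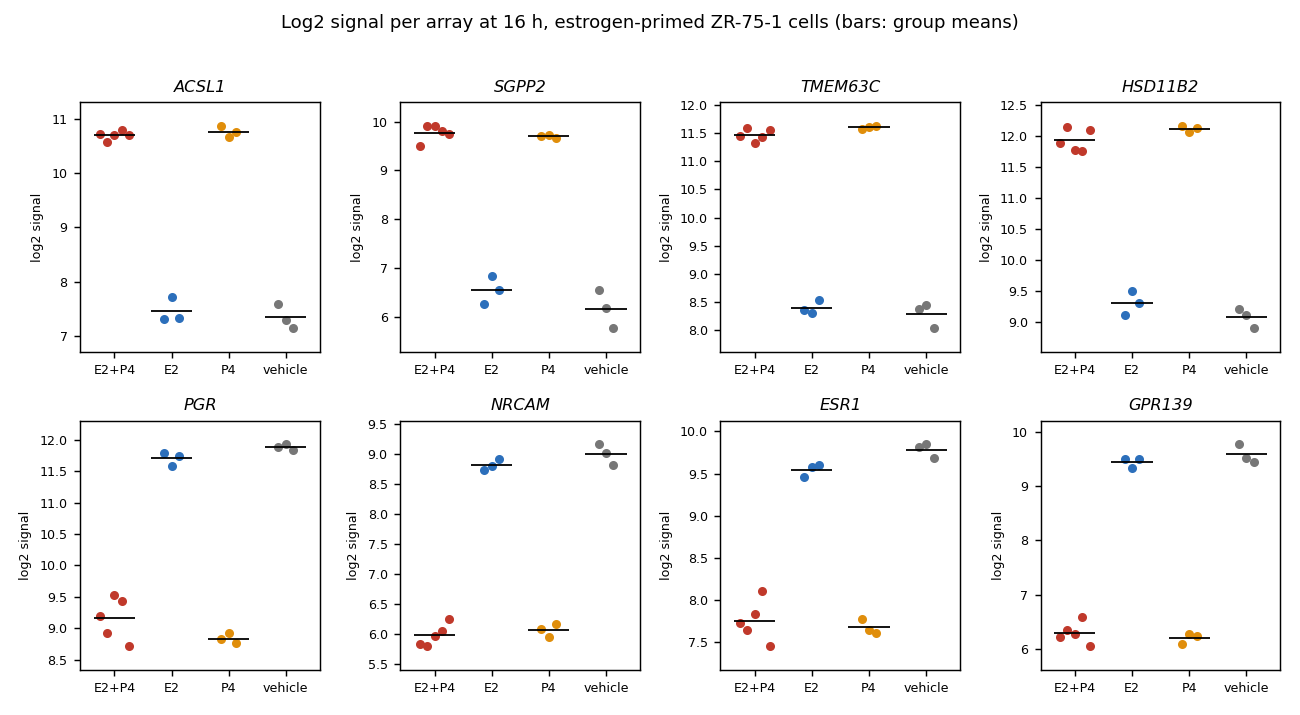
Log2 signal (vertical axes) of 8 genes on each 16 h array of E2p cells with E2+P4 (5 arrays), E2, P4 or vehicle (3 arrays each), with a bar at each group mean. All 5 E2+P4 arrays lie clear of the 3 E2 arrays in every panel, as for ACSL1 at 10.58 to 10.79 against 7.31 to 7.72 and NRCAM at 5.79 to 6.25 against 8.73 to 8.91.

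Steroid receptor transcripts fell in the presence of fresh E2. PGR had 9.20, 8.92, 9.53, 9.43 and 8.71 in E2+P4 cells, against 11.79, 11.58 and 11.74 in E2 cells, which was 5.84-fold lower (log2 difference -2.55 ± 0.11, adjusted p = 4.07e-18). ESR1 had 7.73, 7.64, 7.83, 8.11 and 7.45, against 9.46, 9.58 and 9.60, which was 3.47-fold lower (-1.79 ± 0.10, adjusted p = 1.13e-15). Every E2+P4 array was below every E2 array for both receptors. ESR2 had a difference of -0.18 ± 0.12 and did not pass the test.

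Estrogen-induced targets were mostly lower under E2+P4, with fresh E2 present for 16 h in both groups. Of 22 tested, 14 fell and 1 rose (63.6% and 4.55%, against 11.8% and 9.9% of all named genes), with a median log2 difference of -0.50 beside 0.01 for all named genes. The largest decreases after PGR were in the scaffold gene PDZK1 (-2.42), the chemokine gene CXCL12 (-2.28), the adrenergic receptor gene ADRA2A (-1.91) and the neuropeptide Y receptor gene NPY1R (-1.59), followed by IL20, MYB and IGFBP4 (-1.32, -1.13 and -0.87). TFF1, a secreted trefoil peptide, had 12.14, 11.69, 11.93, 12.00 and 11.54 under E2+P4, against 12.37, 12.52 and 12.42 under E2 (-0.58 ± 0.11, adjusted p = 0.000202). The early estrogen target GREB1 was at 11.43 to 11.63 under E2+P4 and 11.54 to 11.65 under E2, and the groups overlapped (-0.02 ± 0.06, adjusted p = 0.906). CTSD and CA12 did not pass the test either (-0.06 ± 0.04 and 0.07 ± 0.05). CCND1, which encodes cyclin D1, was the member that rose, by 0.23 ± 0.06 (adjusted p = 0.00968), but without E2 replicate 1 or 3 the adjusted p was 0.0778 or 0.0502. MYC was at 8.84, 8.60, 8.77, 8.85 and 8.31 under E2+P4, against 9.01, 9.0 and 9.03 under E2 (-0.34 ± 0.10, adjusted p = 0.0145), and lost its call without E2+P4 replicate 5 (-0.25, adjusted p = 0.0621) or without E2 replicate 1 or 3 (adjusted p = 0.0504 and 0.0605).

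Of 18 genes listed as induced by progestins, 15 rose and 0 fell (83.3% and 0%, against 9.9% and 11.8% of all named genes), with a median log2 difference of 1.19. The list was drawn up with earlier results of these data known. It holds SEPTIN4, FKBP5 and THOC5, which the authors had reported as regulated by P4 or by both hormones in these cells. The share thus describes the list and is not a test. FKBP5, a cochaperone of steroid receptors, had 8.27, 8.38, 8.20, 8.20 and 8.38 under E2+P4, against 6.69, 6.41 and 6.78 under E2 (1.66 ± 0.12, adjusted p = 1.1e-12). CLDN8, of tight junctions, was at 8.18 to 8.36 under E2+P4 and 6.16 to 6.65 under E2. Both genes were tight among the 5 arrays and did not overlap between groups. KLF9 and PER1, a transcription factor and a clock gene (1.51 and 1.27), the kinase gene SGK1 (1.21), SEPTIN4 (1.27) and THOC5 (0.69) rose as well, while LCN2, MAOA and TIPARP did not pass the test (0.28, 0.18 and 0.17).

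**Figure D2:**
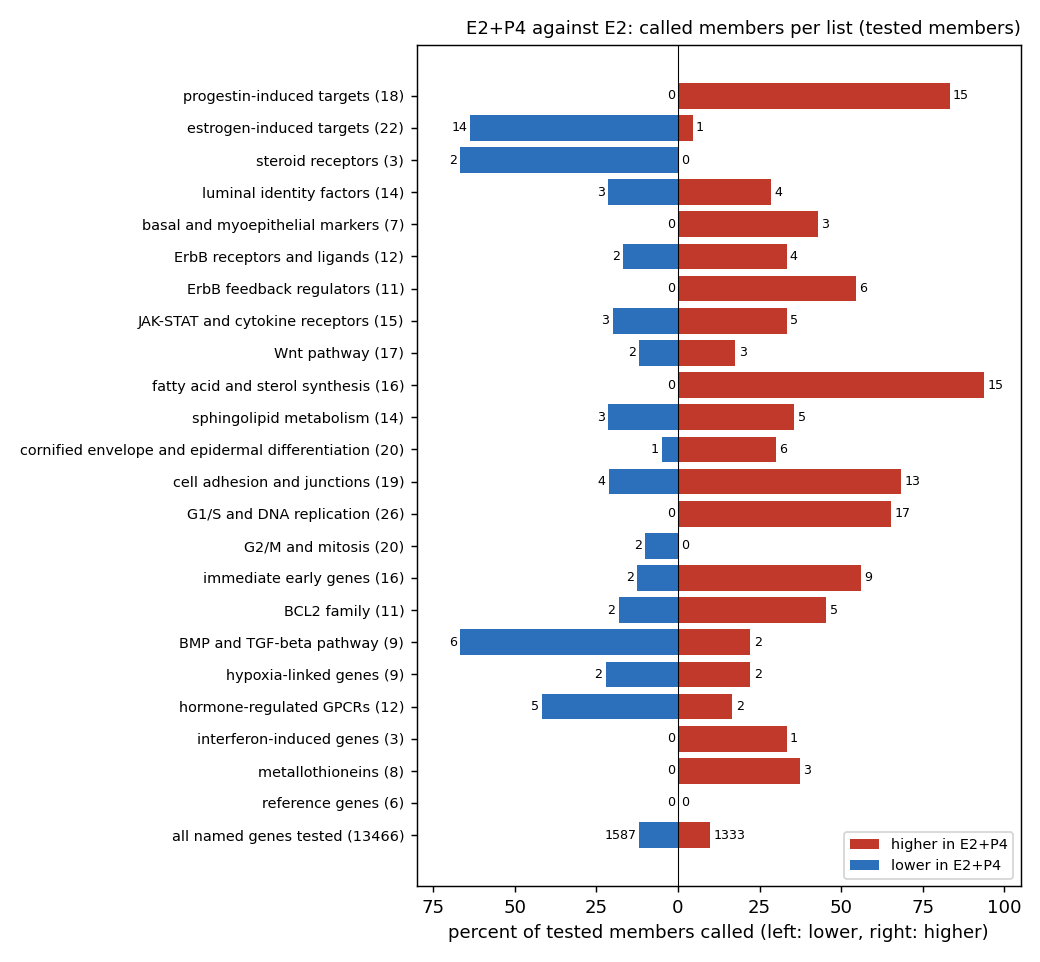
Percent of the tested members of each gene list (vertical axis, tested number in brackets) that were called higher (right) or lower (left) in E2+P4 against E2 cells, with the counts at the bars. Fatty acid and sterol synthesis (15 of 16 higher) and progestin-induced targets (15 of 18 higher) lie to the right and estrogen-induced targets (14 of 22 lower) to the left, beside 9.9% higher and 11.8% lower of all named genes.

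The epidermal growth factor axis changed at several levels. The ligand gene EGF had 9.47, 9.81, 9.56, 9.63 and 9.83 in E2+P4 cells, against 8.15, 7.87 and 8.04 in E2 cells, 3.12-fold higher (log2 difference 1.64 ± 0.09, adjusted p = 5.37e-16). Its receptor gene EGFR had 8.65, 9.06, 8.71, 8.83 and 9.12, against 7.58, 7.91 and 7.61, 2.25-fold higher (1.17 ± 0.10, adjusted p = 2.3e-11). ERBB4, a receptor for neuregulins, had 6.34, 6.10, 6.48, 6.72 and 6.39, against 8.49, 8.28 and 8.34, 3.9-fold lower (-1.96 ± 0.13, adjusted p = 2.04e-13). None of these genes overlapped between the groups. Of 12 receptors and ligands 4 rose and 2 fell (33.3% and 16.7%, against 9.9% and 11.8% of all named genes). The ligand genes EPGN (0.94 ± 0.21) and BTC (0.31 ± 0.11, adjusted p = 0.0471, with overlapping groups) rose with EGF, the neuregulin gene NRG1 fell (-0.52 ± 0.08), and ERBB3 did not pass the test (-0.05 ± 0.08). Of 11 feedback regulators of these receptors 6 rose and 0 fell (54.5% and 0%). The increases were led by the EGFR inhibitor gene ERRFI1 (1.17 ± 0.14) and the MAP kinase phosphatase gene DUSP4 (1.02 ± 0.09). SPRY2, an antagonist of receptor signalling, followed (0.78 ± 0.14). ERRFI1 was at 10.40, 11.09, 10.31, 10.45 and 11.11 under E2+P4, against 9.36, 9.74 and 9.40 under E2, and replicates 2 and 5 were the highest.

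In the JAK-STAT list 5 of 15 members rose and 3 fell (33.3% and 20%, against 9.9% and 11.8% of all named genes). STAT5A, a transcription factor that acts downstream of prolactin, had 7.71, 8.43, 7.61, 7.90 and 8.21 under E2+P4, against 6.26, 6.41 and 6.82 under E2 (1.48 ± 0.18, adjusted p = 7.6e-08). STAT5B (0.55 ± 0.10) and the cytokine receptor gene LIFR (1.32 ± 0.20) rose with it, whereas the prolactin receptor gene PRLR (-0.50 ± 0.07), the oncostatin M receptor gene OSMR (-0.60 ± 0.12) and CISH, a feedback inhibitor (-0.49 ± 0.10), fell. JAK2 was at 8.14, 9.01, 8.58, 8.67 and 9.08, against 8.05, 7.60 and 8.08 (0.79 ± 0.19, adjusted p = 0.00383), and without E2 replicate 2 its adjusted p was 0.0562. Of 17 Wnt pathway members 3 rose (17.6%, against 9.9% of all named genes), with the receptor gene FZD8 first (0.78 ± 0.09), and 2 fell (11.8%, the same share as of all named genes), the receptor gene FZD2 (-0.73 ± 0.13) and RNF43, whose product removes Wnt receptors (-0.63 ± 0.13). Of 9 BMP and TGF-beta genes 6 fell and 2 rose (66.7% and 22.2%). The TGF-beta binding protein gene LTBP1 (-1.23 ± 0.09) and the ligand gene BMP4 (-1.08 ± 0.19) were among those that fell. SKIL (0.95 ± 0.13) and BMP2 (0.40 ± 0.12) rose. In a fit of the 8 arrays alone JAK2, RNF43 and BMP4 were not called (adjusted p = 0.0615, 0.0689 and 0.0528).

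Lipid synthesis genes rose as a group. Of 16 tested in fatty acid and sterol synthesis, 15 were higher and 0 lower (93.8%), with a median log2 difference of 0.59. FASN, the fatty acid synthase gene, had 12.39, 12.06, 12.37, 12.35 and 11.88 under E2+P4, against 10.69, 11.04 and 10.89 under E2 (1.34 ± 0.10, adjusted p = 3.16e-12), and here replicates 2 and 5 were the lowest of the 5. DHCR7, of the last step of cholesterol synthesis, was at 11.43 to 11.57 under E2+P4 and 10.09 to 10.49 under E2 (1.21 ± 0.06, adjusted p = 7.55e-17). INSIG1 (0.99), FDPS (0.85), HMGCS1 (0.82), SQLE (0.67) and SCD (0.66) followed, the regulators SREBF1 and SREBF2 rose by 0.40 and 0.25, and THRSP did not pass the test (0.16 ± 0.17). Of 14 sphingolipid genes 5 rose and 3 fell (35.7% and 21.4%, against 9.9% and 11.8% of all named genes). The S1P transporter gene SPNS2 (1.18 ± 0.12) and the sphingosine kinase gene SPHK1 (0.52 ± 0.09) rose beside SGPP2. Among those that fell was SGPP1, the paralog of SGPP2. It had 8.11, 7.91, 8.35, 8.38 and 7.96 under E2+P4, against 9.06, 8.78 and 9.08 under E2 (-0.83 ± 0.12, adjusted p = 2.83e-06).

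Junction genes also rose, with 13 of 19 adhesion genes higher (68.4%) and 4 lower (21.1%). The desmosomal genes DSG2 (0.79 ± 0.07), DSP (0.75 ± 0.08) and PKP2 (0.58 ± 0.10) and the claudin genes CLDN4 (0.60 ± 0.12) and CLDN7 (0.56 ± 0.07) were among those that rose with CLDN8. Those that fell were NRCAM, NCAM2 (-1.17 ± 0.10), CEACAM6 (-0.93 ± 0.12) and CEACAM5 (-0.92 ± 0.21), which are adhesion molecules of the immunoglobulin family. L1CAM, of the same family, rose (0.45, adjusted p = 0.00258). Of 20 cornified envelope genes 6 rose and 1 fell (30% and 5%, against 9.9% and 11.8% of all named genes). The plakin gene PPL (0.86 ± 0.14) and CDSN (0.64 ± 0.15) came after SCEL and LCE3D. Of 14 luminal identity genes 4 rose and 3 fell (28.6% and 21.4%). Of 7 basal and myoepithelial markers 3 rose and 0 fell (42.9% and 0%). The basal keratin gene KRT5 was at 5.94, 6.37, 5.48, 5.89 and 6.14 under E2+P4, against 5.24, 5.03 and 4.80 under E2 (0.94 ± 0.20, adjusted p = 0.000607), a low level on these arrays that nevertheless did not overlap. KRT14, MYLK, SFRP1 and VIM did not pass the test (-0.05, 0.17, -0.08 and -0.17), and KRT19, a luminal keratin gene, rose (0.57 ± 0.09).

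Genes of the G1/S transition and DNA replication rose in 17 of 26 tested members and fell in 0 (65.4% and 0%), by small amounts with a median log2 difference of 0.30. E2F1, which drives entry into S phase, had 10.91, 10.92, 10.80, 10.65 and 10.58 under E2+P4, against 9.74, 10.18 and 9.87 under E2 (0.84 ± 0.09, adjusted p = 6.16e-09), and CDC25A, GINS2 and the cyclin gene CCNE2 rose by 0.66 to 0.67. Of 20 mitotic genes 0 rose and 2 fell (10%, near the 11.8% of all named genes). These were KIF20A (-0.24 ± 0.07, adjusted p = 0.0192) and CDC25C (-0.33 ± 0.11, adjusted p = 0.0326), and both lost their calls without E2 replicate 1 (adjusted p = 0.0804 and 0.116) or without E2 replicate 3 (adjusted p = 0.0687 and 0.162), KIF20A also without E2+P4 replicate 2 (adjusted p = 0.0538), and CDC25C also without E2+P4 replicate 1 or 5 (adjusted p = 0.0894 and 0.059). The proliferation marker MKI67 was at 10.97, 11.01, 10.96, 10.93 and 11.16 under E2+P4, against 10.85, 11.06 and 10.78 under E2, which overlapped (0.11 ± 0.08, adjusted p = 0.504).

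The survival gene BCL2 had 7.74, 7.59, 8.31, 8.17 and 7.47 under E2+P4, against 10.02, 9.92 and 10.02 under E2, 4.38-fold lower (log2 difference -2.13 ± 0.15, adjusted p = 5.41e-13). Its relatives MCL1 and BCL2L1, which also oppose cell death, rose by 0.72 ± 0.08 and 0.63 ± 0.12. Of the family's 11 tested members 5 rose and 2 fell (45.5% and 18.2%, against 9.9% and 11.8% of all named genes). The other 3 that rose, BMF (0.59), PMAIP1 (0.52) and BCL2L11 (0.32), promote cell death. BMF was not called in a fit of the 8 arrays alone (adjusted p = 0.0567). Of 16 immediate early genes 9 rose and 2 fell (56.2% and 12.5%). JUN had 8.31, 9.06, 8.54, 8.43 and 9.26 under E2+P4, against 6.83, 8.04 and 6.87 under E2 (1.47 ± 0.25, adjusted p = 3.04e-05), and E2 replicate 2 lay close to the lowest E2+P4 array. FOSL2 (0.86 ± 0.07) and FOS (0.80 ± 0.15) rose with it, although a second, dimmer FOS cluster did not pass the test (0.12, adjusted p = 0.797), and in a fit of the 8 arrays alone FOS was not called (adjusted p = 0.0523). Of 8 metallothionein genes 3 rose and 0 fell (37.5% and 0%), and the 3 were MT1X, MT1F and MT2A (1.32, 0.95 and 0.66). Of 12 hormone-regulated G protein-coupled receptors 5 fell (41.7%) and 2 rose (16.7%). Of 6 reference genes 0 passed the test, with changes of -0.18 to 0.10.

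The 5 E2+P4 arrays did not respond by the same amount. Over all tested clusters the median SD was 0.173 among the 5 arrays, the third largest of the 14 groups, beside 0.142 among the 3 E2 arrays and 0.116 among the 3 P4 arrays, the smallest of all groups. A median SD tends to be lower with 3 arrays than with 5, so that this ranking is not like for like. The root mean square SD was 0.248 for E2+P4, the fourth largest, and 0.237 for E2, the seventh. The share of clusters with an SD over 0.5 was 3.93% for E2+P4 and 3.94% for E2. The median absolute difference between 2 arrays ranged from 0.142 (replicates 2 and 5) to 0.228 (replicates 1 and 5), with a median of 0.173, which was the sixth largest of the 14 groups. To size the response of each array, its difference from the mean of the 3 E2 arrays was divided by that of the other 4 E2+P4 arrays, over the clusters called without it. The median of this ratio was 0.877, 1.103, 0.830, 0.773 and 1.101 for replicates 1 to 5. For E2 replicates 1 to 3, which had no P4, each taken against the other E2 arrays, it was 0.040, 0.207 and -0.008. Part of the span among the E2+P4 arrays may thus be scatter between arrays. E2+P4 replicates 2 and 5 were also the high ones in clusters chosen on other arrays. In the 917 clusters that P4 alone had changed by at least 2-fold against vehicle at 16 h, replicates 2 and 5 fell short of 0.5 times the change under P4 alone in 6.76% and 6.43% of the clusters, and replicates 1, 3 and 4 in 34.4%, 27.8% and 30.1%. Replicate 1 was short mainly in clusters higher with P4 (45.5%, against 18.5% of clusters lower with P4), replicates 3 and 4 in both directions (27.1% and 28.8% of the higher, 28.8% and 32.0% of the lower). The cause of this spread was not tested. The labels describe RNA isolation as 1 batch and name no plate or date for the 5 arrays.

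Single genes with wide or split values among the 5 arrays were looked at next, and these were picked for that spread or for their known roles. FOXA1 was at 9.99, 9.13, 10.04, 9.99 and 9.11 in E2+P4 replicates 1 to 5, against 10.40, 10.30 and 10.40 in E2 cells. All 5 arrays were below the E2 arrays and the gene was called (-0.72 ± 0.14, adjusted p = 0.000306), although not in a fit of the 8 arrays alone (adjusted p = 0.121). Replicates 2 and 5, however, were at the level of P4 alone for 16 h (9.22, 9.11 and 9.02), whereas replicates 1, 3 and 4 were above each of the 9 arrays with P4 alone at 4, 8 or 16 h (8.43 to 9.22), each of the 9 with the synthetic progestin medroxyprogesterone acetate (MPA, 8.18 to 9.39) and each of the 3 with E2 and MPA (8.66 to 8.94), and below all 12 arrays of E2p cells with vehicle at 0 to 16 h (10.43 to 10.74). GATA3 was at 11.42, 10.61, 11.22, 11.42 and 10.52 under E2+P4, against 11.21, 11.37 and 11.29 under E2. Replicates 1 and 4 were above all 3 E2 arrays, replicate 3 was within their range, and replicates 2 and 5 were below them. As a group the difference was -0.25 ± 0.13 and did not pass the test (adjusted p = 0.262). RASSF2, a Ras association domain gene, was at 6.12, 7.93, 6.62, 6.63 and 8.11 under E2+P4, against 6.26, 6.47 and 6.09 under E2. Its call (0.81 ± 0.28, adjusted p = 0.0446) was lost without E2+P4 replicate 2 or 5 (0.60 and 0.55, adjusted p = 0.164 and 0.174) and without any one E2 array (adjusted p = 0.116, 0.0592 and 0.189).

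Other genes showed the same 2 arrays apart. STC1, a secreted glycoprotein gene, had 8.20, 6.79, 8.22, 8.34 and 6.62 under E2+P4, against 9.76, 9.59 and 9.71 under E2 (-2.05 ± 0.23, adjusted p = 2.69e-08), and the transcription factor gene SNAI2 had 6.82, 7.78, 6.83, 6.80 and 8.10, against 5.82, 5.94 and 5.99 (1.35 ± 0.20, adjusted p = 6.72e-06). For both, the groups did not overlap and replicates 1, 3 and 4 lay between the E2 arrays and replicates 2 and 5. In 3 further genes replicates 1, 3 and 4 were all above replicates 2 and 5. ELF5, a luminal progenitor transcription factor gene, had 7.54, 6.95, 7.73, 7.66 and 7.05 under E2+P4, against 6.37, 6.61 and 6.56 under E2 (0.87 ± 0.14, adjusted p = 2.26e-05), so that replicates 2 and 5 were the nearer to E2. These 2 replicates were also at the level of P4 alone at 16 h (7.11, 7.05 and 6.96). All 9 arrays with P4 alone at 4, 8 or 16 h were between 5.99 and 7.11. S100A7, a gene of keratinocyte stress, had 8.82, 7.80, 10.13, 9.15 and 6.63, against 8.20, 8.85 and 8.22 (0.08 ± 0.45, adjusted p = 0.957), the largest SD of any gene tested with a name. S100A8, of the same family, had 8.65, 7.61, 9.08, 8.89 and 7.08, against 7.96, 8.56 and 7.89 (0.13 ± 0.25, adjusted p = 0.848). In both S100 genes replicates 2 and 5 were below all 3 E2 arrays and replicates 1, 3 and 4 were within or above them. P4 alone at 16 h gave 7.05, 7.25 and 7.12 for S100A7 and 7.61, 7.53 and 7.29 for S100A8. The groups overlapped, and no difference between E2+P4 and E2 was detectable with these arrays. MIR548K and MIR4421, which completed the 6 named genes with the widest spread, were low on these arrays (4.56 to 6.73 and 3.01 to 4.94 under E2+P4) and did not pass the test.

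**Figure D3:**
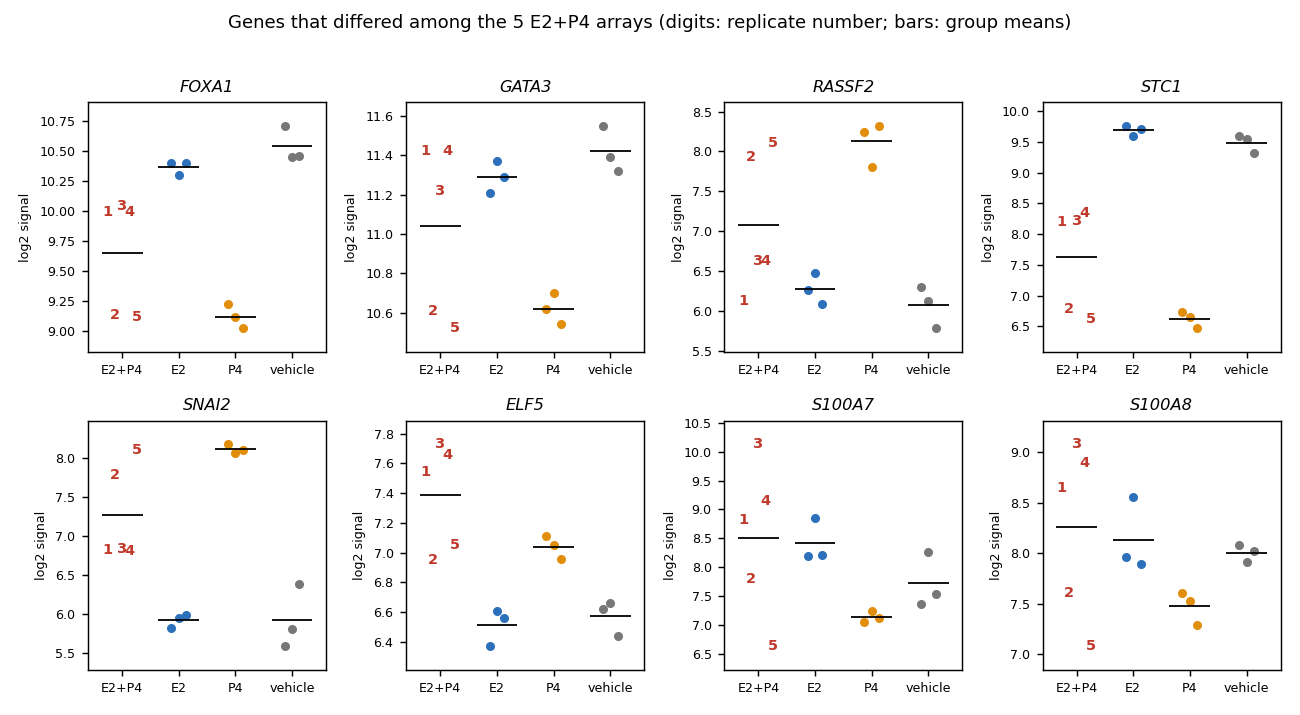
Log2 signal (vertical axes) of 8 genes on the 16 h arrays, with the E2+P4 arrays drawn as their replicate numbers, the other arrays as points and a bar at each group mean. Replicates 2 and 5 sit near the P4 arrays in FOXA1, GATA3, RASSF2, STC1, SNAI2, ELF5 and S100A8, and on either side of them in S100A7. In ELF5, S100A7 and S100A8 replicates 1, 3 and 4 lie above replicates 2 and 5.

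The response was then set beside that to P4 without fresh E2, a comparison that shares no array with it. P4 alone changed 3271 clusters upward (7.91%) and 3278 downward (7.92%) against vehicle at 16 h. Of the clusters higher with E2+P4, 1941 were also higher with P4 alone, which is 78.9% of the first list and 59.3% of the second, and of those lower 2253 were, which is 68.7% of both lists, while 0 were called in opposite directions. Over the clusters called with P4 alone, the change with fresh E2 was a median 0.711 of the change without it (interquartile range 0.499 to 0.901). The choice of clusters bears on this value, since over the clusters called with fresh E2 the change without it was a median 1.056 of the change with it, 1.171 where the change with fresh E2 was at least 2-fold up and 1.083 where it was at least 2-fold down. ACSL1 rose by 3.25 ± 0.11 with fresh E2 and by 3.43 ± 0.12 without it, SGPP2 by 3.23 ± 0.16 and 3.55 ± 0.18, and NRCAM had differences of -2.84 ± 0.11 and -2.93 ± 0.12. In none of these 3 genes did the difference between the responses pass the test (ACSL1 -0.18, 95% confidence interval -0.50 to 0.15, SGPP2 -0.32, -0.80 to 0.17, NRCAM 0.09, -0.25 to 0.43).

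**Figure D4:**
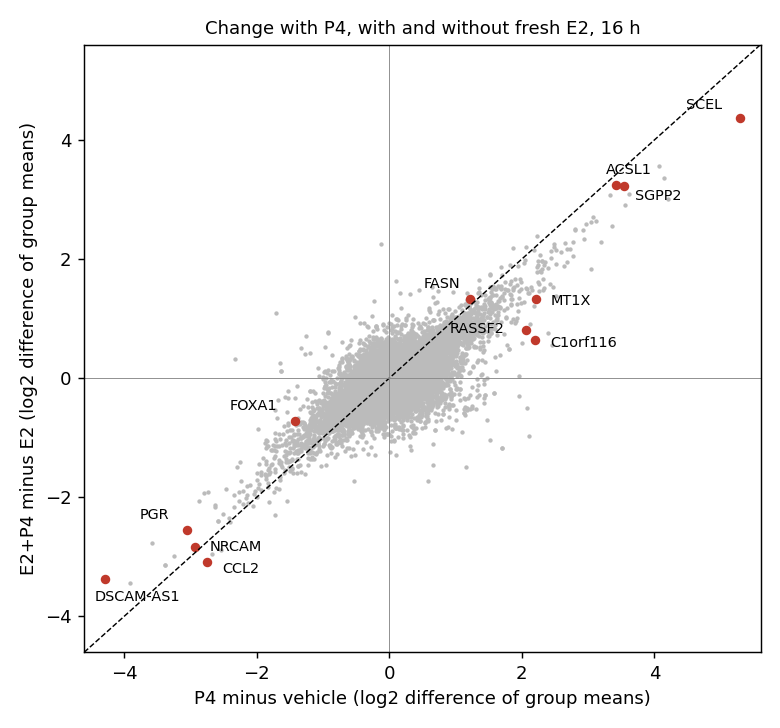
Each point is 1 of the 41374 tested clusters, with the log2 difference P4 minus vehicle at 16 h on the horizontal axis and E2+P4 minus E2 on the vertical axis, the dashed line marking equal change and 12 genes named. ACSL1 (3.43 and 3.25) lies close to the line, and C1orf116 (2.21 and 0.65) and MT1X (2.22 and 1.32) lie well below it.

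The difference between the responses passed the test in 4 clusters (0.00967%), in each of which the difference was negative, and 2 of them had names. At an unadjusted p under 0.05 there were 2530 (6.11%). C1orf116, known as a specifically androgen-regulated gene, had 10.35, 10.54, 10.34, 10.27 and 10.63 in E2+P4 cells, against 9.87, 9.67 and 9.80 in E2 cells, and 10.44, 10.37 and 10.58 in P4 cells, against 8.53, 8.13 and 8.12 in vehicle cells. Both groups with P4 were at 1 level and the E2 arrays stood between them and vehicle. The P4 change was 0.65 ± 0.11 with fresh E2 and 2.21 ± 0.12 without it, a difference of -1.56 ± 0.17 (adjusted p = 2.8e-06). Under fresh E2 alone C1orf116 was 1.52 ± 0.12 above vehicle at 16 h (adjusted p = 2.69e-09). In a fit of those arrays alone the adjusted p was 0.218. Its vehicle means were 9.19 at 4 h, 8.78 at 8 h and 8.26 at 16 h. The 12 vehicle arrays at 0 to 16 h ran from 8.12 to 9.62, up to near the E2 arrays. The change over time with vehicle was not tested. MT1X had 10.05, 10.73, 10.07, 10.35 and 10.68 under E2+P4, against 9.02, 9.0 and 9.14 under E2, and 10.92, 10.91 and 10.91 under P4, against 8.73, 8.64 and 8.70 under vehicle. Its difference was -0.90 ± 0.16 (adjusted p = 0.0349), and the call was lost when any one of the 14 arrays other than E2+P4 replicate 2 or 5 was left out (adjusted p between 0.0587 without E2+P4 replicate 1 and 0.202 without E2 replicate 3).

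**Figure D5:**
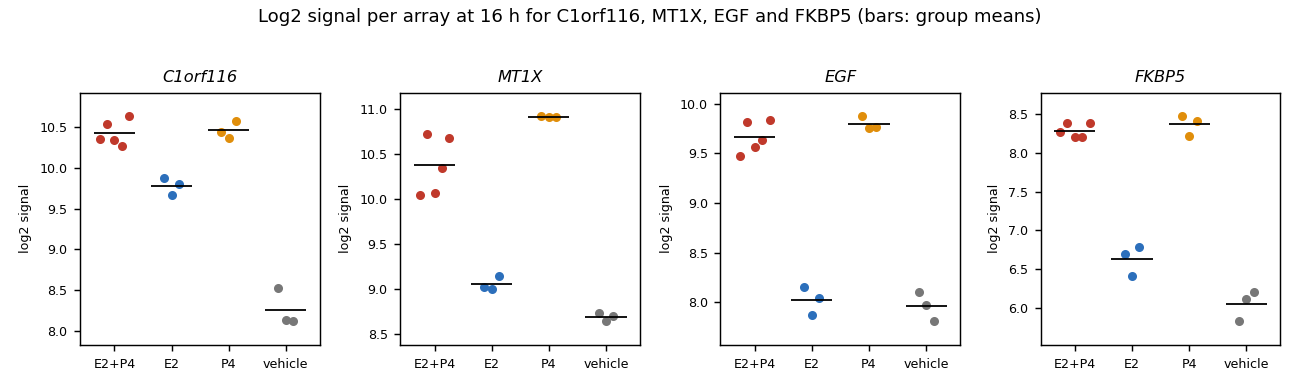
Log2 signal (vertical axes) of C1orf116, MT1X, EGF and FKBP5 on each 16 h array of E2p cells with E2+P4, E2, P4 or vehicle, with a bar at each group mean. The E2 arrays of C1orf116 (9.67 to 9.87) lie above its vehicle arrays (8.12 to 8.53), whereas both groups with P4 are at 10.27 to 10.63.

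The comparison of fresh E2 by itself with vehicle in primed cells had 2 clusters called against vehicle at 16 h (0.00483%) and 1785 at an unadjusted p under 0.05, 4.31% of those tested. The count depended on the fit and was 656 with array weights, whose estimation stopped before it converged. Of the 2, 1 was C1orf116 and the other was unnamed. The direct comparison of E2+P4 with P4 called 0 clusters in limma (0%, smallest adjusted p = 0.219), while 4115 had an unadjusted p under 0.05 (9.95%). In this comparison FOXA1 differed by 0.53 (95% confidence interval 0.25 to 0.82), STC1 by 1.01 (0.54 to 1.48), SNAI2 by -0.85 (-1.26 to -0.43) and MT1X by -0.54 (-0.75 to -0.32), with adjusted p of 0.248, 0.219, 0.219 and 0.219, whereas ACSL1 differed by -0.07 (-0.29 to 0.15). The count varied with the E2+P4 arrays that were used. Leaving out 1 array changes both the group mean and the spread, which these counts do not separate, and the cause was not tested. Without E2+P4 replicate 2 the count was 230 (82 higher and 148 lower) and without replicate 5 it was 344 (129 higher and 215 lower), and it remained 0 without replicate 1, 3 or 4.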

How the data were processed

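Transcript levels in ZR-75-1 cultures were measured on Affymetrix Gene ST arrays. The authors deposited 1 log2 value per transcript cluster and array, made with RMA (background correction, quantile normalization and probe summarisation). The submitters' processing notes list RMA and limma, and give a version for neither. Gene 1.0 ST is the design in the labels, but identifiers were those of the Gene 2.0 ST annotation, which gave the names. The table held 53617 clusters on 44 arrays, of which 16098 had 1 gene symbol and the rest were unnamed here.

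The deposited log2 values were tested without further transformation. Clusters were tested if they exceeded the array's 30th percentile on 3 or more arrays, and the cluster with the highest mean stood for a gene. Group means of all 14 groups were fitted with limma 3.58.1 in R 4.3.3 (30 residual degrees of freedom), with two-sided Bayesian moderated t-statistics, Benjamini-Hochberg correction over all tested clusters and a threshold of 0.05. Changes are log2 differences of group means, with standard errors (SE). A gene at or below the 30th percentile on every array of a group has only a lower bound there. No array repeated another (highest correlation 0.993). Named genes were the 3 given markers, the 10 largest increases and decreases without overlap, up to 4 called members per list, a fixed set of hormone and growth genes, the called interaction genes and the 6 genes with the widest spread among the E2+P4 arrays. Members and lists were chosen with earlier results of these data known. Precision is limited by how many arrays each group has. The fit was tested on simulated data. Sequences were copied from RefSeq tables (GRCh38.p14), and 71 of the 98 named genes had a promoter window. Scanner files, and with them the background of single probes, were not used here.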

Additional observations from a re-analysis of the deposited data

Results flagged for a closer look

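The test of the difference between the P4 responses with and without fresh E2 was passed by C1orf116 (-1.56) and MT1X (-0.90). In both, the increase with E2+P4 over E2 was the smaller one. MT1X was not called in limma fits of the compared arrays alone (adjusted p = 0.915), after quantile normalization (adjusted p = 0.121) or without a filter (adjusted p = 0.0521).

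Among the 98 named genes, 3 had 1 of the 5 E2+P4 arrays far from the other 4 by Dixon's ratio, where chance flags about 1 gene in 20. EPGN was at 5.58 in E2+P4 replicate 2 and between 5.25 and 5.31 in the others. MCL1 was at 9.99 in replicate 3 and between 10.18 and 10.23 in the others, and NPY1R at 7.06 in replicate 1 and between 7.55 and 7.64 in the others. Over all tested clusters, replicate 1 was the array set apart most often, in 3.04% of clusters, beside 0.421% to 0.863% for each of the others. Genes such as FOXA1, in which 2 arrays lie away from 3, are not found by this ratio.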

How the results depend on the processing

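The count for E2+P4 against E2 lay between 3876 and 7070 under the alternatives other than those that follow. It was 2971 in a fit of the compared arrays alone and 1626 at an adjusted p of at most 0.0001, and 4157 (without E2 replicate 3) to 5812 (without E2+P4 replicate 4) with 1 array left out. With each array's interquartile range as a covariate, 50.7% of calls were higher in place of 42.9%. Leaving out the 2 arrays of narrow range, chosen after seeing the data, gave 5554. The difference between the responses gave 1 with the compared arrays alone, 40 with array weights, 2 after quantile normalization, 2 without a filter, 1 at 0.0001 and 2 to 5 with 1 array left out. P4 against vehicle gave 3563, 11510 and 2076 with the compared arrays alone, with array weights and at 0.0001. E2 against vehicle gave 1, 656, 9 and 1 with the compared arrays alone, array weights, the interquartile range and 0.0001, and 1 to 3 with 1 array left out. E2+P4 against P4 gave 6 with array weights, 81 with 1 variance per group, 16 with E2+P4 replicates 1 to 3 only and 0 to 344 with 1 array left out. The estimation of the array weights stopped before it converged, so that those counts are less certain. The cause of these differences was not tested.

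The labels do not say whether equal replicate numbers mark paired samples, and the main fit did not pair them. Same-numbered E2+P4 and E2 arrays deviated from their group means with correlations of 0.235, 0.162 and -0.072, and 2 of the 3 numbers matched best with themselves. With the replicate block E2+P4 against E2 gave 5093 calls and E2+P4 against P4 gave 18. Numbers 4 and 5 exist only under E2+P4, so that the block takes those arrays out of the contrast.

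Of the 98 named genes, 81 kept their side of the threshold with the compared arrays alone and 75 at 0.0001. Directions turned in 5 genes whose change did not pass the test. MIR548K was -0.12 and GREB1 0.0047 with the replicate block and with E2+P4 replicates 1 to 3 only, and S100A8 was -0.15 and S100A7 -0.53 with replicates 4 and 5 only. With 1 array left out, MIR548K ran from -0.1355 to 0.4082, GREB1 from -0.0407 to 0.013, S100A7 from -0.3264 to 0.5471, S100A8 from -0.0788 to 0.4225 and MIR4421 from -0.4107 to 0.0721. BMF was called (0.59) by its highest cluster and not by another (0.22, adjusted p = 0.528). The response of each of the 5 arrays and their spread moved by less than the spread between arrays without a filter or with arrays centred on their median.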
